A study of Mus musculus with 16 samples.

Results

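The genes described here are 40 members of fatty acid uptake, storage and oxidation, taken by name from a table of 23946 genes. They were grouped by known function, with earlier results of these data known, and divided into uptake and activation (5 genes), lipid droplet storage and lipolysis (9), the carnitine shuttle and its malonyl-CoA control (6), beta-oxidation (9), auxiliary enzymes for unsaturated fatty acids (4), electron transfer (3), and uncoupling proteins and thioesterases (4). All 40 were found in the table, and all 40 passed the filter on low values, a level of 1 FPKM reached by at least 4 of the 16 libraries, which left 12100 genes to test. FPKM, a fragment count divided by transcript length and by library depth, is a level that can be compared between genes.

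PolyA RNA of ventricular free walls was sequenced from male FVB mice aged 10 to 13 weeks. The 4 groups of 4 libraries were right ventricle (RV) of PS animals, RV of sham animals, left ventricle (LV) of PS animals and LV of sham animals. The labels do not spell out PS, which was read as pulmonary artery banding, since banding and a sham operation are the procedures in the treatment protocol. Banding, done here to bring on RV failure, loads the RV and not the LV. Libraries are named by ventricle, group and the number in their label, as RV_PS_9552, and sham libraries by the numbers 1 to 4. No label says that libraries of a group came from separate mice, or that equal numbers mark 1 mouse. A p-value here therefore sets a difference of group means against the spread between libraries of a group. Part of that spread may be technical, and it may not be the spread between mice.

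Fatty acids are the main fuel of the adult heart. They enter the cardiomyocyte through membrane transporters, are activated to acyl-CoA, and are either stored as triglyceride in droplets or passed into mitochondria by the carnitine shuttle. Inside, beta-oxidation shortens them step by step and hands electrons to the respiratory chain. Many of these genes are known targets of the nuclear receptors PPAR alpha and ERR alpha, which bind variants of the half-site AGGTCA.

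To show what lies before the genes that fell in the RV, RefSeq promoter windows of GRCm38.p6 (250 bases before to 50 after a start) were matched by symbol for 33 of 40 members, which have 39 windows. The 4 stretches below are the 250 bases before the start of Ucp3, the gene with the largest fall, Plin5 and Acadm, which fell and hold a half-site, and Ech1, which fell with none. They span chr7:100472741-100472990 on the plus strand, chr17:56117549-56117798 on the minus strand, chr3:153944644-153944893 on the minus strand and chr7:28825088-28825337 on the plus strand, and each is written 5′ to 3′ on the gene's strand. Capitals mark AGGTCA or its reverse complement TGACCT.
Ucp3: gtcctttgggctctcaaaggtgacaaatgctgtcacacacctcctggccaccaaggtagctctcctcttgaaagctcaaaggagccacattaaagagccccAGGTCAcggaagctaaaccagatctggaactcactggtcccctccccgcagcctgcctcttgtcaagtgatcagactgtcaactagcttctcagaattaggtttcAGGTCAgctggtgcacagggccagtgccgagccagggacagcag
Plin5: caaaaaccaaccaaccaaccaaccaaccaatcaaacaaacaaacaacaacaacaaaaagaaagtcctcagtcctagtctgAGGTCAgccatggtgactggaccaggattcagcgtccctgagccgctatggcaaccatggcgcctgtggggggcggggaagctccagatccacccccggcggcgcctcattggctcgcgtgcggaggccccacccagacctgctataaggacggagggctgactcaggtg
Acadm: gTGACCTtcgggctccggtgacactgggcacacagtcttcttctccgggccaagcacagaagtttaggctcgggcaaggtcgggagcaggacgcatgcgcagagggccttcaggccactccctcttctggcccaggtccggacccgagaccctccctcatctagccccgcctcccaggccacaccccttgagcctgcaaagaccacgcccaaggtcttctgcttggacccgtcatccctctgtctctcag
Ech1: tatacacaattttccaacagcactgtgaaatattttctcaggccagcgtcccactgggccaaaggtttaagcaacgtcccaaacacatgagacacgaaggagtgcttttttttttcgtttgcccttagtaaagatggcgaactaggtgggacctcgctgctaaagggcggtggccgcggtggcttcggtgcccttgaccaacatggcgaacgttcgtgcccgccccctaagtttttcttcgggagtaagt
The Ucp3 stretch held 2 half-sites, which begin 149 and 44 bases before the start, the Plin5 stretch 1 at 170 bases and the Acadm stretch 1 at 249 bases. AGGTCA on either strand was in 10 of 39 member windows (25.6%) and in 16.3% of all 32851 windows. Among members with a window it was found for 5 of 18 that fell in the RV and 4 of 15 that did not. The longer AGGTCANAGGTCA, which holds the half-site at each end, was in 0 of 39 member windows and 0.0396% of all windows, and TNAAGGTCA, which contains AGGTCA, in 0 of 39 and 1.28%. GGGCGG, which is contained in none of these, was in 27 of 39 member windows (69.2%) and 35.7% of all windows. These are matches of letters within short windows, and binding was not measured.

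Levels were compared as log2(FPKM + 1) in 1 limma fit of 4 group means over 16 libraries, first as deposited and then rescaled, with each library divided by a median-ratio factor. A log2 difference below is that of group means on this scale, as deposited unless called rescaled. A gene is said to have risen or fallen where the Benjamini-Hochberg adjusted p over all 12100 genes was under 0.05 in the same direction on both scales. The rescaling was done because the typical level of FPKM differs between libraries. Rn45s (precursor of ribosomal RNA) stood at 0 in 5 of the libraries, RV_PS_9561, RV_PS_9564, LV_PS_9552, LV_PS_9553 and LV_PS_9561. It had 44335 FPKM or more in all sham libraries. The 5 libraries, all of them PS, had scale factors of 1.24 to 1.30, and the cause was not tested. Scale factors were 0.902 to 1.29 in RV PS, 0.878 to 1.01 in RV sham, 0.967 to 1.30 in LV PS and 0.843 to 0.988 in LV sham libraries. Depth is not given, and the steps between low values put it at an estimated 2.33e+06 to 5.35e+06 fragments in RV PS, 3.58e+05 to 1.43e+06 in RV sham, 3.53e+06 to 9.31e+06 in LV PS and 1.76e+06 to 4.34e+06 in LV sham libraries. In the shallowest, RV sham 2, 7 members rested on fewer than 20 estimated fragments, the lowest being Hadhb with 12.

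In the RV, 21 of 40 members fell and 0 rose. The falls reached every step of the pathway, from the transporter Slc27a1 and the carrier Fabp3 through the droplet proteins Fitm1 and Plin5 and the shuttle enzyme Cpt2 to the enzymes Acaa2 and Ech1, and the largest was that of the uncoupling protein Ucp3. Over all genes tested, 4.93% fell and 10.0% rose. At an unadjusted p under 0.05 on both scales (limma), 28 members were lower and 1, Ucp2, was higher, against 8.43% and 19.0% of all genes. The median log2 difference of the 40 was -0.62 as deposited and -0.83 rescaled, against 0.26 and 0.089 over all genes tested. Below 0 lay 33 of 40 members, against 30.3% of all genes. In 20 members all 4 RV PS libraries were below all 4 RV sham libraries, against 5.07% of all genes, and in 0 members above them, against 12.6%. The summed FPKM of the 40 genes was 5164 to 6854 in RV PS and 9497 to 10762 in RV sham libraries. In bulk tissue, fewer cells of a type and less RNA per cell cannot be told apart.

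Scaling set how far this count reached. With rescaled values alone 29 members were lower and 0 higher, against 9.49% and 10.1% of all genes. With each library's FPKM divided by their sum (TPM scaling), where all genes had a median of 0.65, 11 were lower and 4 (Lpl, Cd36, Plin2 and Ucp2) higher, against 1.17% and 47.0% of all genes. In that scaling 1 entry, Mir6236, holds 21.3 to 59.7% of a library's sum. Of the 21 falls, Fabp3, Fitm2, Pnpla2, Cpt1b, Cpt2, Acacb, Acadvl, Acadm, Acads and Hadha were not called under TPM scaling. Quantile normalization gave 24 lower and 1 higher, against 8.85% and 8.62% of all genes. Fabp3, Cpt1b and Acadm were not among the 24. With only the 11 libraries that have an Rn45s value, which leaves 2 RV PS libraries, 18 were lower, against 1.87% of all genes, and Fitm2, Pnpla2 and Acadm were not called.

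**Figure D1:**
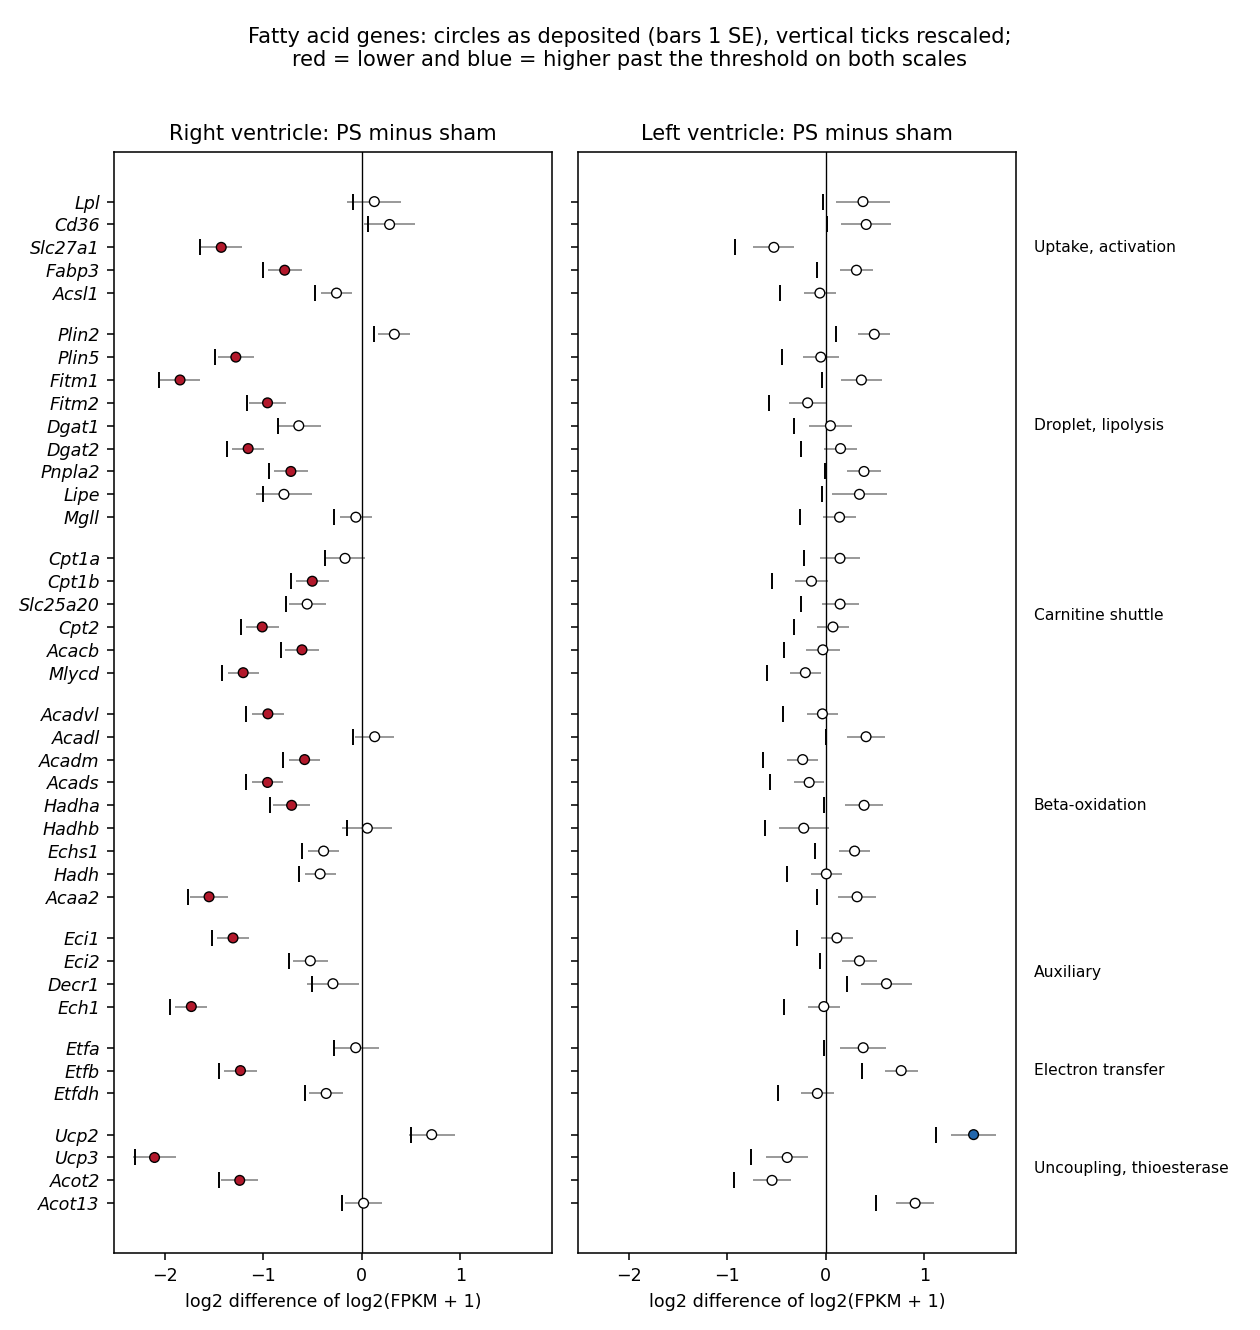
Log2 difference of log2(FPKM + 1), PS minus sham, for the 40 genes in the RV (left panel) and the LV (right panel), by step. Circles are values as deposited with bars of 1 SE, vertical ticks are rescaled values, and filled circles passed the threshold on both scales: 21 genes in the RV, all lower, and 1 in the LV, Ucp2, which is higher.

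Uptake and activation split. Slc27a1 (FATP1), a transport protein that couples fatty acid entry to activation, had 41.5, 50.3, 45.8 and 64.8 FPKM in RV PS libraries, against 157, 136, 133 and 119 FPKM in RV sham libraries. The groups did not overlap, and Slc27a1 fell by 1.42 ± 0.21 (SE) on the log2 scale (limma adjusted p = 0.000488). Fabp3, the heart's cytosolic fatty acid carrier and the most abundant of the 40, had 1051, 982, 1355 and 1154 FPKM in RV PS libraries, against 2214, 1869, 1524 and 2234 FPKM in RV sham libraries. It fell by 0.78 ± 0.17 (adjusted p = 0.00641), with RV_PS_9561 closest to the sham range. Fabp3 was among the members not called under TPM scaling and under quantile normalization.

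Lpl, Cd36 and Acsl1 gave no call. Lipoprotein lipase, Lpl, frees fatty acids from circulating lipoproteins and had 247, 294, 409.7 and 727 FPKM in RV PS libraries, against 399, 305, 278 and 448 FPKM in RV sham libraries. The RV PS values spread on both sides of the sham values, and its log2 difference was 0.13 ± 0.27 (adjusted p = 0.767). Cd36, the main membrane fatty acid translocase, averaged 84.6 ± 32.9 FPKM in RV PS and 66.2 ± 10.4 FPKM in RV sham libraries (SD, n = 4 each). Acsl1, the acyl-CoA synthetase that traps long-chain fatty acids in the cell, had 94.8, 109, 109 and 150.1 FPKM in RV PS libraries, against 128, 161, 128 and 130.3 FPKM in RV sham libraries. Its log2 difference was -0.26 (adjusted p = 0.264), and -0.47 rescaled (adjusted p = 0.0343), so that it passed on 1 scale.

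Of the 9 genes of droplet storage and lipolysis, 5 fell. Fitm1, an endoplasmic reticulum protein of muscle that partitions triglyceride into droplets, had 96.4, 111, 102 and 63.1 FPKM in RV PS libraries, against 363, 295, 329.6 and 334 FPKM in RV sham libraries. The lowest sham library was over 2 times the highest PS library, and the log2 difference was -1.84 ± 0.20 (adjusted p = 5.55e-05). Its paralog Fitm2, which is expressed in most tissues, had 19.3, 28.8, 19.1 and 24.9 FPKM in RV PS libraries, against 35.6, 45.6, 48.5 and 51.7 FPKM in RV sham libraries. Fitm2 also fell without overlap, by 0.95 ± 0.19 (adjusted p = 0.00350).

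Plin5, the droplet coat protein of oxidative tissue that brings droplets to mitochondria, had 20.5, 32.7, 35.7 and 32.2 FPKM in RV PS libraries, against 81.7, 58.4, 78.7 and 76.7 FPKM in RV sham libraries. It fell by 1.28 ± 0.18 (adjusted p = 0.000448). Plin2, the droplet coat protein found in most cells, averaged 27.5 ± 5.16 FPKM in RV PS and 21.4 ± 1.73 FPKM in RV sham libraries (SD, n = 4 each), with a log2 difference of 0.33 (adjusted p = 0.158).

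Dgat2 and Dgat1 carry out the last step of triglyceride synthesis. Dgat2 had 52.8, 54.7, 51.9 and 63.1 FPKM in RV PS libraries, against 118, 110.0, 138 and 134 FPKM in RV sham libraries. All 4 RV PS values lay within a narrow range far below the sham values, and Dgat2 fell by 1.15 ± 0.16 (adjusted p = 0.000410). Dgat1 averaged 13.3 ± 3.58 FPKM in RV PS and 21.6 ± 6.45 FPKM in RV sham libraries (SD, n = 4 each) and missed the threshold as deposited (log2 difference -0.64, adjusted p = 0.0561).

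The lipases act in order on the droplet. Pnpla2 (ATGL), which cuts the first fatty acid from triglyceride, averaged 94.6 ± 11.9 FPKM in RV PS and 157 ± 21.6 FPKM in RV sham libraries, and fell by 0.72 (adjusted p = 0.0105). Lipe, the hormone-sensitive lipase, averaged 16.4 ± 4.30 FPKM in RV PS and 30.1 ± 10.9 FPKM in RV sham libraries and overlapped between groups (log2 difference -0.79, adjusted p = 0.0623). Mgll, which releases the last fatty acid, averaged 85.9 ± 15.4 FPKM in RV PS and 89.7 ± 16.9 FPKM in RV sham libraries (log2 difference -0.06, adjusted p = 0.825). SDs are over 4 libraries each. Of these lipases Pnpla2 alone was called.

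Of the 6 shuttle genes, 4 fell. Cpt1b, the muscle form of the enzyme that commits acyl groups to mitochondria, had 187, 219.7, 245 and 332 FPKM in RV PS libraries, against 371, 302, 327 and 368 FPKM in RV sham libraries. As deposited, RV_PS_9564 lay within the sham range, and the fall of 0.50 ± 0.17 was close to the threshold (limma adjusted p = 0.0457). Rescaled, RV_PS_9564 had 257 FPKM, below the lowest sham value of 344 FPKM. Leaving out any 1 of RV_PS_9552, RV_PS_9553 or RV_PS_9561 or RV sham 1, 3 or 4 ended the Cpt1b call, with adjusted p up to 0.11. Cpt1a, the liver form, averaged 12.1 ± 3.35 FPKM in RV PS and 13.5 ± 2.47 FPKM in RV sham libraries (SD, n = 4 each; log2 difference -0.17, adjusted p = 0.582).

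Cpt2, which reforms acyl-CoA on the inner side, had 47.3, 41.4, 56.7 and 55.1 FPKM in RV PS libraries, against 93.5, 102, 106 and 104 FPKM in RV sham libraries. No library of either group came near the other, and Cpt2 fell by 1.01 ± 0.17 (adjusted p = 0.00107). Slc25a20, the translocase between the CPT enzymes, averaged 41.1 ± 8.83 FPKM in RV PS and 60.2 ± 8.10 FPKM in RV sham libraries (SD, n = 4 each) and was just outside the threshold as deposited (log2 difference -0.55, adjusted p = 0.0520).

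Malonyl-CoA, the inhibitor of CPT1, is made by Acacb and removed by Mlycd, and both genes fell. Mlycd had 30.7, 27.4, 31.1 and 25.7 FPKM in RV PS libraries, against 61.2, 78.8, 67.6 and 62.4 FPKM in RV sham libraries. Mlycd fell by 1.20 ± 0.16 (adjusted p = 0.000216), with no overlap. Acacb had 27.4, 34.1, 35.6 and 51.1 FPKM in RV PS libraries, against 52.0, 55.8, 61.7 and 53.0 FPKM in RV sham libraries. RV_PS_9564 came within 1 FPKM of the lowest sham value as deposited, but had 39.5 FPKM against 52.4 FPKM rescaled. The fall of Acacb was 0.61 ± 0.17 (limma adjusted p = 0.0226). Without RV_PS_9552, RV_PS_9561 or RV sham 3 Acacb was not called, with adjusted p up to 0.0566.

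Beta-oxidation begins with acyl-CoA dehydrogenases, each with its own chain length. Acadvl, for very long chains, had 287, 275, 355 and 376 FPKM in RV PS libraries, against 631, 658, 555 and 644 FPKM in RV sham libraries. It fell by 0.95 ± 0.16 (adjusted p = 0.00123), without overlap. Acads, for short chains, had 81.6, 106, 107 and 102 FPKM in RV PS libraries, against 213, 191, 192 and 173 FPKM in RV sham libraries, and fell by 0.95 ± 0.15 (adjusted p = 0.000914). Acadm, for medium chains, averaged 338 ± 52.8 FPKM in RV PS and 506 ± 91.0 FPKM in RV sham libraries (SD, n = 4 each) and fell by 0.58 (adjusted p = 0.0211). Leaving out RV_PS_9552 or RV sham 2 ended the Acadm call, with adjusted p up to 0.0605.

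The long-chain enzyme stood apart from the other dehydrogenases. Acadl averaged 389.7 ± 79.4 FPKM in RV PS and 351 ± 32.7 FPKM in RV sham libraries (SD, n = 4 each). Its log2 difference was 0.13 (adjusted p = 0.659) and -0.09 rescaled, so its sign turned with the scaling.

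Hadha and Hadhb encode the alpha and beta chains of the mitochondrial trifunctional protein, which takes long-chain intermediates through the next reactions. Hadha had 166, 164, 245 and 244 FPKM in RV PS libraries, against 328, 324, 328 and 337 FPKM in RV sham libraries. As deposited, the sham values were nearly equal and the PS values formed 1 lower and 1 higher pair. Rescaled, the PS values were 184, 175, 197 and 189 FPKM, without these pairs. Hadha fell by 0.71 ± 0.19 (limma adjusted p = 0.0185). Without RV_PS_9553 the Hadha call ended, with an adjusted p of 0.0520. Hadhb was listed far lower per length than its partner, at 28.1 ± 2.97 FPKM in RV PS and 28.2 ± 10.1 FPKM in RV sham libraries (SD, n = 4 each), with a log2 difference of 0.06 (adjusted p = 0.894).

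Acaa2, a thiolase that ends a round and releases acetyl-CoA, had 116, 138, 179 and 145 FPKM in RV PS libraries, against 415, 354, 466 and 452 FPKM in RV sham libraries. The groups lay far apart, and Acaa2 fell by 1.55 ± 0.19 (adjusted p = 0.000136). Echs1, the short-chain hydratase, averaged 182 ± 18.6 FPKM in RV PS and 239.7 ± 40.2 FPKM in RV sham libraries. Hadh, the short-chain hydroxyacyl-CoA dehydrogenase, averaged 97.4 ± 18.0 FPKM in RV PS and 130.0 ± 17.9 FPKM in RV sham libraries (SD, n = 4 each). Echs1 (log2 difference -0.39, adjusted p = 0.0917) and Hadh (-0.42, adjusted p = 0.0718) passed only after rescaling, where adjusted p was 0.0152 and 0.00332.

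The auxiliary enzymes move or remove double bonds so that unsaturated fatty acids can be oxidised. Ech1, a dienoyl-CoA isomerase, had 413, 393, 547 and 417 FPKM in RV PS libraries, against 1628, 1471, 1374 and 1365 FPKM in RV sham libraries. It fell by 1.73 ± 0.16, and its adjusted p of 1.30e-05 as deposited was the smallest of the 40. Eci1, an enoyl-CoA isomerase of mitochondria, had 117, 110.3, 134 and 101 FPKM in RV PS libraries, against 312, 243, 312 and 282 FPKM in RV sham libraries. Eci1 fell by 1.30 ± 0.16 (adjusted p = 0.000136), again with no overlap.

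The other auxiliary genes gave no call. Eci2, an isomerase found in peroxisomes as well, had 44.2, 39.3, 52.5 and 39.2 FPKM in RV PS libraries, against 52.3, 87.1, 61.6 and 55.5 FPKM in RV sham libraries (log2 difference -0.52, adjusted p = 0.0515). RV_PS_9561 lay just above the lowest sham library. Decr1, the dienoyl-CoA reductase, had 26.9, 28.7, 45.0 and 33.7 FPKM in RV PS libraries, against 33.0, 30.4, 65.9 and 40.4 FPKM in RV sham libraries (log2 difference -0.29, adjusted p = 0.447).

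Electron transfer flavoprotein collects electrons from all the acyl-CoA dehydrogenases, and its subunits differed. Etfb, the beta chain, had 293, 246, 321 and 264 FPKM in RV PS libraries, against 702, 598, 665 and 665 FPKM in RV sham libraries, and fell by 1.23 ± 0.17 (adjusted p = 0.000291). Etfa, the alpha chain, had 87.7, 94.0, 153 and 149 FPKM in RV PS libraries, against 116, 114, 152 and 110.3 FPKM in RV sham libraries, which overlapped (log2 difference -0.06, adjusted p = 0.879). Etfdh, which passes the electrons to ubiquinone, had 85.2, 106, 131 and 142 FPKM in RV PS libraries, against 154, 135, 137 and 163 FPKM in RV sham libraries. Its log2 difference was -0.36 (adjusted p = 0.144), and -0.58 rescaled (adjusted p = 0.00111).

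Ucp3, an inner-membrane carrier of muscle and heart that goes up with fatty acid supply, had 3.39, 4.57, 5.31 and 7.38 FPKM in RV PS libraries, against 32.8, 20.1, 20.8 and 27.3 FPKM in RV sham libraries. The lowest sham value was over 2 times the highest PS value. Ucp3 fell by 2.10 ± 0.21 (adjusted p = 3.01e-05), a 4.29-fold lower level on the log2(FPKM + 1) scale, which understates changes at low levels. Ucp2, its paralog of wider expression, had 19.6, 25.4, 25.8 and 26.0 FPKM in RV PS libraries, against 14.6, 9.79, 12.7 and 22.8 FPKM in RV sham libraries. Its log2 difference of 0.71 passed as deposited (adjusted p = 0.0435) and not after rescaling (0.50, adjusted p = 0.0583), and RV sham 4 overlapped the PS libraries.

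Acot2, a mitochondrial thioesterase that splits long-chain acyl-CoA, had 14.3, 11.0, 13.7 and 17.8 FPKM in RV PS libraries, against 44.3, 26.0, 36.2 and 33.6 FPKM in RV sham libraries. It fell by 1.24 ± 0.19 (adjusted p = 0.000601), but Acot1 is a near-identical copy and reads may have been divided between them, so either value is uncertain. Acot13, a thioesterase bound to mitochondria, had 317, 314, 432 and 256 FPKM in RV PS libraries, against 311, 301, 300.0 and 371 FPKM in RV sham libraries (log2 difference 0.02, adjusted p = 0.955).

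**Figure D2:**
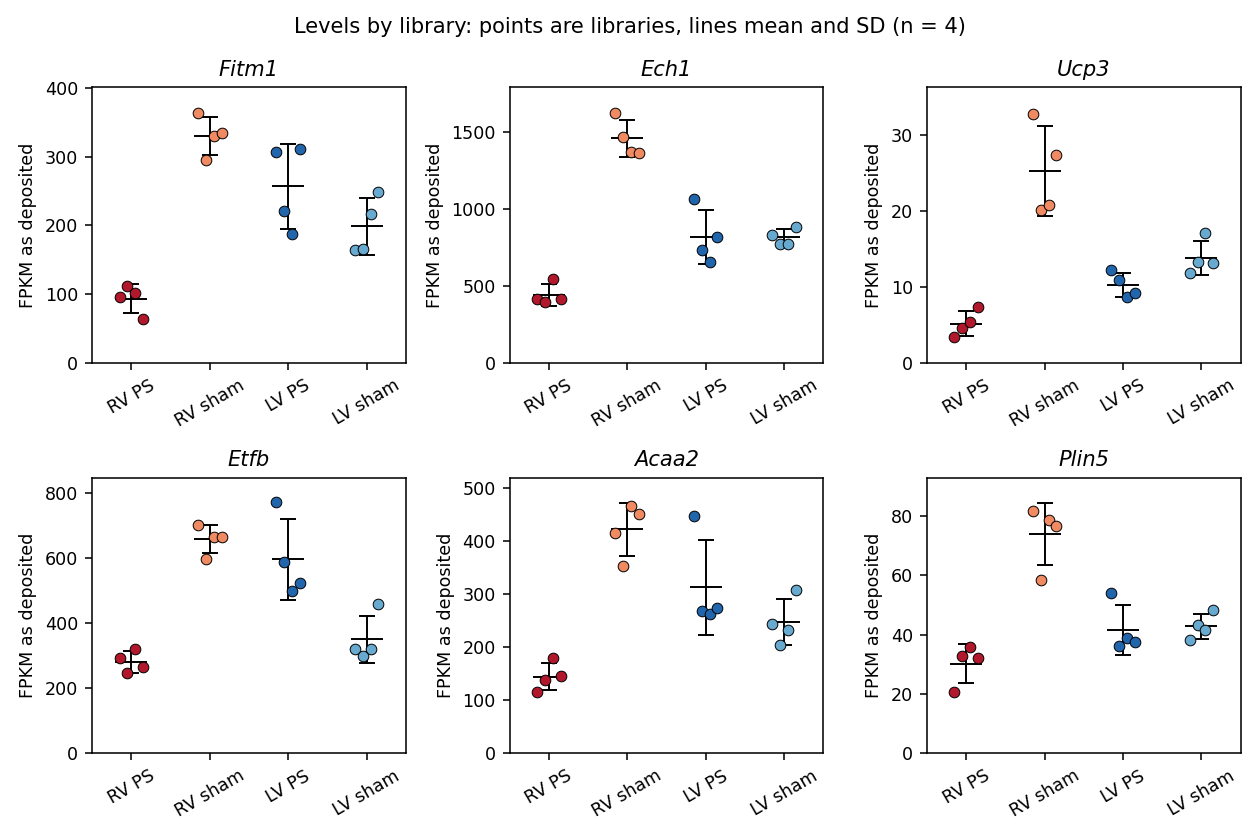
FPKM as deposited of Fitm1, Ech1, Ucp3, Etfb, Acaa2 and Plin5 in each of 16 libraries. Points are libraries, long bars are group means and short bars mark 1 SD (n = 4); in every panel the 4 RV PS libraries lie below all RV sham libraries, and RV sham is the highest group.

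Cardiomyocyte markers moved in both ventricles. All 10 markers on the list were above 0 in all 16 libraries, with Myh6 between 1383 and 3828 FPKM. In the RV, 3 of 10 fell (Tnni3, Myl2 and Myl3) and 0 rose, against 4.93% and 10.0% of all genes. The summed level of the 10 was 29854 to 39513 FPKM in RV PS and 41238 to 44810 FPKM in RV sham libraries. Set against that sum, the 40 fatty acid genes held 17.3 to 17.8 FPKM per 100 FPKM of markers in RV PS and 22.2 to 24.2 FPKM in RV sham libraries. In the LV, 2 of 10 rose (Tnni3 and Myl2) and 0 fell, against 2.44% and 0.289% of all genes. As deposited alone 8 were higher, against 14.3% of all genes, and rescaled alone 2, against 2.44%. The marker sum, as deposited, was 54198 to 69660 FPKM in LV PS and 28026 to 43612 FPKM in LV sham libraries. The same quotient was 14.6 to 16.3 FPKM in LV PS and 21.1 to 26.3 FPKM in LV sham libraries. PS and sham libraries did not overlap in this quotient in either ventricle, so a lower quotient in PS was not particular to the RV. The mean quotient was 17.4 in RV PS and 23.5 in RV sham, and 15.4 in LV PS and 24.5 in LV sham libraries. The summed FPKM of the 40 genes was lower in PS in the RV, as given above. In the LV it was 8415 to 11348 in LV PS and 7292 to 9199 in LV sham libraries, which overlapped. Rescaled, it was 6929 to 8926 in LV PS and 8460 to 10118 in LV sham libraries. As deposited, the lower LV quotient thus came with a higher marker sum and not with a lower member sum. This quotient was formed after the values were seen and carries no test, and the part of cardiomyocyte RNA in the results on single genes was not tested.

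Several markers of fat were at or near 0, and others were not. Adipoq did not exceed 3.54 FPKM and was listed at 0 in 6 libraries, Plin1 did not exceed 4.10 FPKM, Lep was listed at 0 in 14 libraries, and Ucp1, the marker of brown fat, was listed at 0 in all 16. The other brown fat markers were not all so low. Cidea had 7.76 to 32.2 FPKM and Cox7a1, which is also the cytochrome oxidase subunit of heart and skeletal muscle, 1301 to 7230 FPKM. Of these 5 markers 3 were tested, and in the RV Cox7a1 fell and Dio2 rose. The sum of the 5 was 1316 to 2956 FPKM in RV PS and 5480 to 7247 FPKM in RV sham libraries. In the LV it was 3673 to 5668 FPKM in LV PS and 2383 to 4249 FPKM in LV sham libraries. Nearly all of this sum was Cox7a1 in every group. Cidea rose in the LV. Of 10 adipocyte markers 4 were tested, Fabp4, Thrsp, Cfd and Adig, and 0 fell in the RV. The sum of the 10 was 935 to 1677 FPKM in RV PS and 904 to 1327 FPKM in RV sham libraries, nearly all of it Fabp4, which endothelium also expresses. Thrsp had 19.5 to 45.6 FPKM over all 16 libraries, while Cfd reached 11.7 FPKM and Adig 7.31 FPKM. Of 10 islet markers, insulin genes among them, 7 were tested and 6 fell in the RV, with sums of 66.0 to 156 FPKM in RV PS, 644 to 2163 FPKM in RV sham, 25.4 to 59.8 FPKM in LV PS and 87.9 to 2102 FPKM in LV sham libraries. Of 10 endothelial markers 0 were called in the RV, and their sum was 519 to 734 FPKM in RV PS and 365 to 525 FPKM in RV sham libraries. In the LV 1 of them, Vwf, rose, with sums of 421 to 671 FPKM in LV PS and 342 to 421 FPKM in LV sham libraries.

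Fibroblast and macrophage markers gave few calls, beside 10.0% of all genes that rose and 4.93% that fell in the RV. In the LV, 2.44% of all genes rose and 0.289% fell. Of 8 fibroblast markers, Pi16 rose and Scara5 fell in the RV, and Pi16 rose in the LV. Their sum was 244 to 462 FPKM in RV PS, 189 to 252 FPKM in RV sham, 318 to 690.1 FPKM in LV PS and 150 to 283 FPKM in LV sham libraries, which overlapped in the RV and not in the LV. Of 8 macrophage markers, Cd14 rose in the RV and C1qb in the LV, and the others were not called. Their sum was 85.5 to 145 FPKM in RV PS, 68.4 to 106 FPKM in RV sham, 136 to 203 FPKM in LV PS and 60.2 to 102 FPKM in LV sham libraries. The part of brown fat, islet, endothelial, fibroblast and macrophage RNA in the fatty acid results was not tested.

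In the LV, 1 of 40 members rose, Ucp2, and 0 fell, against 2.44% of all genes that rose and 0.289% that fell (limma). Ucp2 had 32.2, 33.4, 38.5 and 20.8 FPKM in LV PS libraries, against 11.9, 8.06, 9.62 and 11.4 FPKM in LV sham libraries. All LV PS libraries were above all LV sham libraries, LV_PS_9564 being the lowest, and Ucp2 rose by 1.50 ± 0.23 on the log2 scale as deposited (limma adjusted p = 0.00133) and 1.12 rescaled (adjusted p = 0.00844). With the libraries that have an Rn45s value alone, which leaves 1 LV PS library, Ucp2 was not called, and 0.0248% of all genes were called as higher. At an unadjusted p under 0.05 on both scales, 2 members were lower (Slc27a1 and Acot2) and 2 higher (Ucp2 and Acot13), against 1.05% and 10.8% of all genes.

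The LV values of the other members turned on the scale. Their median with Ucp2 was 0.14 as deposited and -0.26 rescaled, against 0.33 and 0.012 over all genes tested, and 15 members lay below 0 as deposited, against 33 after rescaling. As deposited alone, Etfb and Acot13 passed with Ucp2 as higher and 0 as lower, against 14.3% and 0.322% of all genes. Rescaled alone, Slc27a1, Cpt1b, Acadm, Etfdh, Ucp3 and Acot2 passed as lower, against 1.50% of all genes, and Ucp2 as higher. Quantile normalization gave 13 lower and 1 higher, against 2.2% and 2.02% of all genes. The correction for length and GC gave 7 lower and 1 higher, against 1.28% and 2.95%. Without LV sham 4, Slc27a1 was called as lower and Acot13 as higher, and without LV_PS_9564 Acot2 was called as lower.

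Single LV values show this dependence. Etfb had 772, 589, 499.6 and 523 FPKM in LV PS libraries, against 322, 300.4, 321 and 459 FPKM in LV sham libraries, with log2 differences of 0.76 as deposited (adjusted p = 0.00694) and 0.36 rescaled (adjusted p = 0.267). Acot13 averaged 551 ± 105 FPKM in LV PS and 295 ± 70.0 FPKM in LV sham libraries (SD, n = 4 each), with log2 differences of 0.91 as deposited (adjusted p = 0.00584) and 0.50 rescaled (adjusted p = 0.145). Acot2 had 24.3, 20.2, 24.9 and 27.7 FPKM in LV PS libraries, against 46.1, 32.4, 30.8 and 35.3 FPKM in LV sham libraries, with log2 differences of -0.55 as deposited (adjusted p = 0.0605) and -0.93 rescaled (adjusted p = 0.0148). LV PS and LV sham libraries did not overlap for these 3 genes or for Ucp2 as deposited. No overlap in the higher direction was found for 22.2% of all genes, and in the lower direction for 0.942%.

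**Figure D3:**
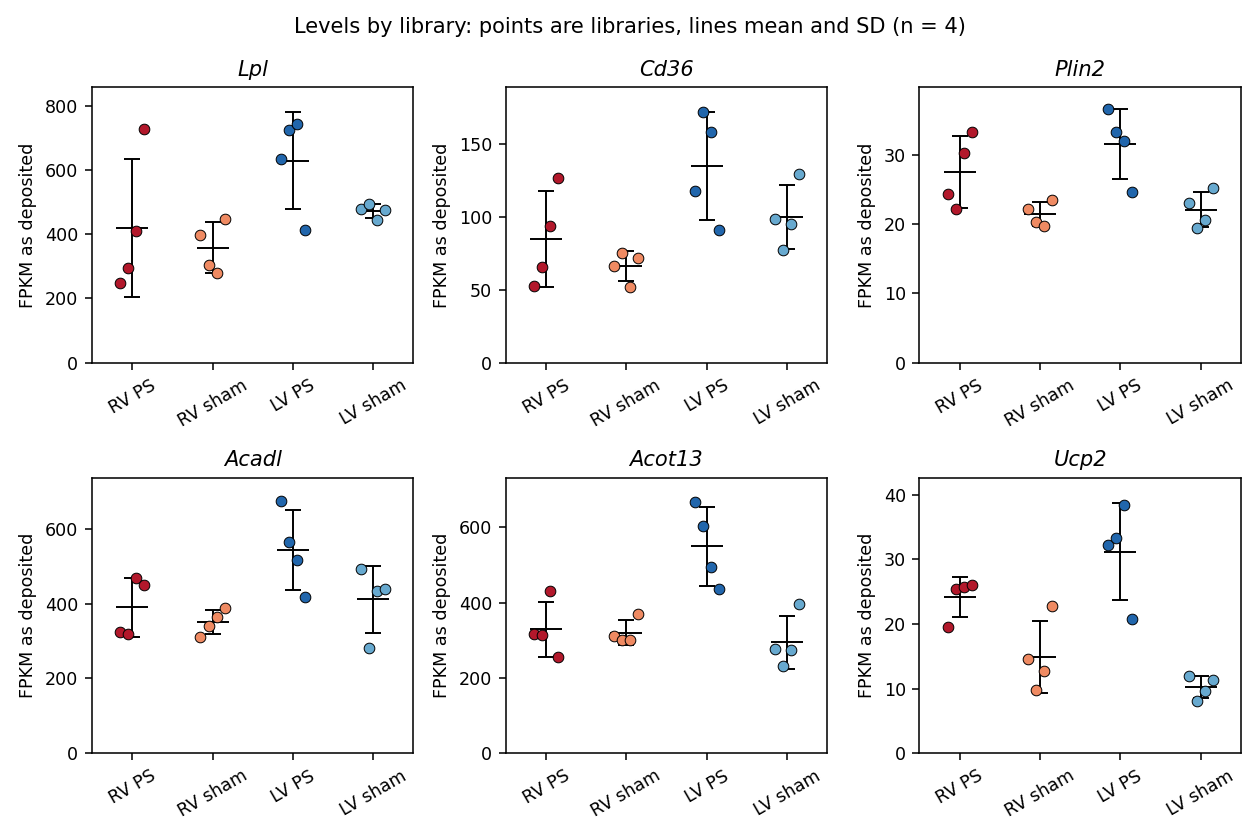
FPKM as deposited of Lpl, Cd36, Plin2, Acadl, Acot13 and Ucp2 in each of 16 libraries. Points are libraries, long bars are group means and short bars mark 1 SD (n = 4); Ucp2 averages 31.2 FPKM in LV PS and 10.3 FPKM in LV sham libraries.

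The response to PS differed between the ventricles for 12 members, all more negative in the RV, against 3.56% of all genes; 0 were more positive, against 0.529%. At an unadjusted p under 0.05 on both scales (limma), 22 were more negative and 0 more positive, against 11.0% and 3.86% of all genes. The 12 were Fabp3, Plin5, Fitm1, Dgat2, Cpt2, Acadvl, Hadha, Acaa2, Eci1, Ech1, Etfb and Ucp3, all of them among the 21 that fell in the RV; both tests use the same RV libraries. As deposited alone 15 were more negative, against 5.53% of all genes. Rescaled alone 12 were more negative and 0 more positive, against 3.69% and 2.02%. The median difference of effects over the 40 was -0.79 as deposited and -0.61 rescaled, against -0.07 and 0.083 over all genes. With no filter and with library weights 10 were more negative, against 1.86% and 3.17% of all genes. The correction for length and GC gave 11, against 3.28%. In 3 other settings still fewer members, and fewer of all genes, were more negative than in the main fit. Under TPM scaling 2 were more negative (0.231% of all genes) and under quantile normalization 6 (2.2%). With the libraries that have an Rn45s value, which leaves 1 LV PS library, 2 were (Fitm1 and Ech1), against 0.0496% of all genes.

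Fitm1 had the largest difference of effects, -2.20 ± 0.29 (adjusted p = 0.000690). It had 307, 222, 188 and 312 FPKM in LV PS libraries, against 164, 166, 216 and 249 FPKM in LV sham libraries, which overlap. Etfb, given above for both ventricles, was lower in RV PS and higher in LV PS as deposited, and its difference of effects was -1.99 ± 0.24 (adjusted p = 0.000690). Acaa2 had 447, 269, 262 and 273 FPKM in LV PS libraries, against 244, 204, 233 and 307 FPKM in LV sham libraries, where LV_PS_9552 was alone in standing above the sham range. Its difference of effects was -1.86 ± 0.27 (adjusted p = 0.000876).

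Ech1 had 1062, 734, 654 and 815 FPKM in LV PS libraries, against 832, 773, 775 and 882 FPKM in LV sham libraries, with sham values inside the PS range. The difference of effects was -1.71 ± 0.23 for Ech1 (adjusted p = 0.000690). Ucp3 had 12.2, 10.9, 8.70 and 9.16 FPKM in LV PS libraries, against 11.8, 13.2, 17.0 and 13.1 FPKM in LV sham libraries, a shift in the same direction as in the RV that was not called (log2 difference -0.39, adjusted p = 0.228). The difference of effects for Ucp3 was -1.71 ± 0.30 (adjusted p = 0.00300). Eci1 had 261, 196, 173 and 197 FPKM in LV PS libraries, against 193, 169, 166 and 236 FPKM in LV sham libraries, and a difference of effects of -1.42 ± 0.23 (adjusted p = 0.00148).

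Of the 12 calls, 3 rested on single libraries. Acadvl (difference of effects -0.92, rescaled adjusted p = 0.0449) was not called when any 1 of 13 libraries was left out. Fabp3 (-1.09, adjusted p = 0.0120) was not called without LV_PS_9564, LV sham 1 or LV sham 3, and Hadha (-1.10, adjusted p = 0.0214) without RV_PS_9553, LV sham 2 or LV sham 3. Of the 9 RV falls outside the 12, Slc27a1, Acot2, Fitm2, Cpt1b, Acadm and Acacb passed on neither scale, and Pnpla2, Mlycd and Acads passed as deposited alone.

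**Figure D4:**
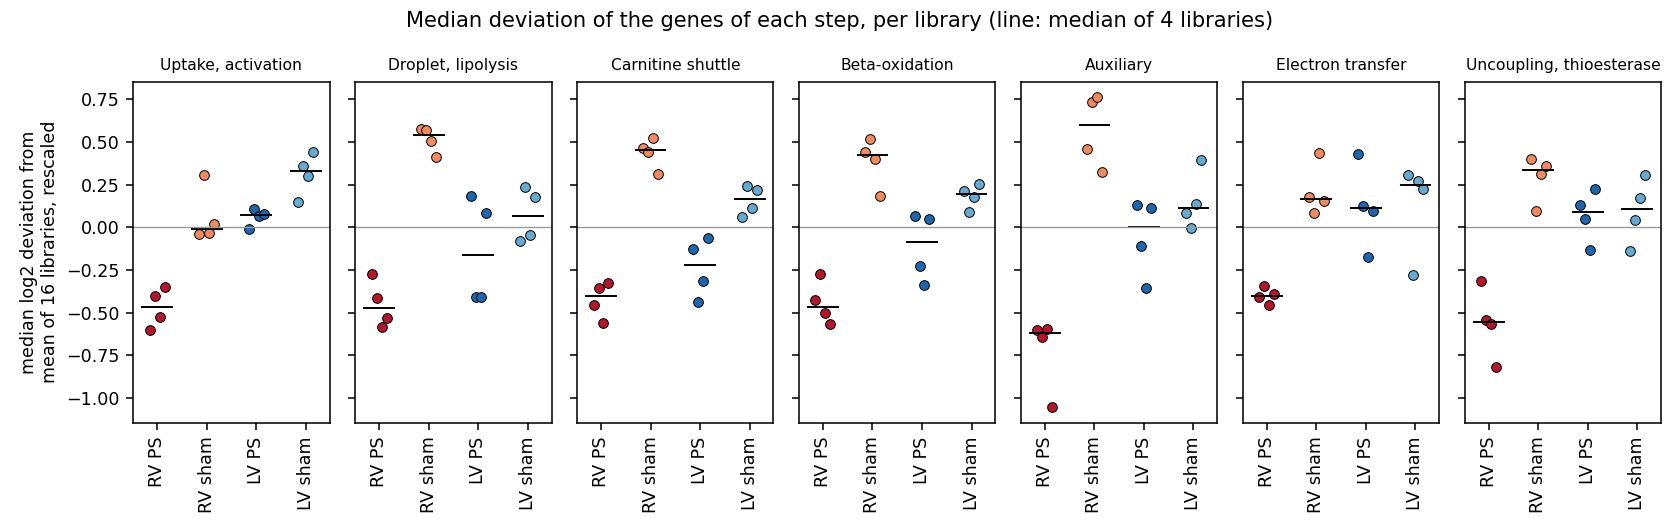
Median deviation of the members of each step from their mean over 16 libraries (rescaled log2(FPKM + 1)), by library and group. Points are libraries and lines the median of 4; in every step all RV PS libraries lie below all RV sham libraries, as in the carnitine shuttle at -0.56 to -0.33 in RV PS and 0.31 to 0.52 in RV sham libraries.

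Between sham ventricles, 6 members were higher in the RV and 0 lower, against 2.51% and 1.33% of all genes. At an unadjusted p under 0.05 on both scales (limma), 15 were higher and 3 (Cd36, Acsl1 and Hadhb) lower, against 10.6% and 9.33% of all genes. The 6 were Etfb, Ech1, Plin5, Acaa2, Ucp3 and Mlycd, and all 6 also fell in the RV of PS animals; these comparisons share the RV sham libraries. Etfb, with the RV and LV sham values given above, was 0.92 ± 0.17 higher on the log2 scale in RV sham (adjusted p = 0.0127). Ech1 was 0.84 ± 0.16 higher in RV sham (adjusted p = 0.0147). Plin5 had 81.7, 58.4, 78.7 and 76.7 FPKM in RV sham libraries, against 38.1, 43.3, 41.5 and 48.4 FPKM in LV sham libraries, and was 0.77 ± 0.18 higher (adjusted p = 0.0304). Mlycd had 61.2, 78.8, 67.6 and 62.4 FPKM in RV sham libraries, against 35.9, 39.7, 41.2 and 44.8 FPKM in LV sham libraries (0.72 ± 0.16, adjusted p = 0.0217, and 0.0483 rescaled). All 6 were free of overlap, as were 9 other members that were higher in RV sham and 1, Cd36, that was lower, against 6.40% of all genes in the higher and 5.04% in the lower direction.

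This count moved with single libraries. It was 2 without RV sham 1, 2 without LV sham 1, 3 without LV sham 2 and 1, Etfb, without LV sham 3, where 1.44%, 0.636%, 1.37% and 0.471% of all genes were higher. The Mlycd call ended without any 1 of 7 of the 8 sham libraries and with the replicate block (library numbers as pairs). Plin5, Acaa2 and Ucp3 each ended without any 1 of 6, and Ucp3 also with the block. Under TPM scaling, where the median of all genes was -0.47, 0 members were higher and 10 lower in RV sham, against 0.314% and 24.7% of all genes, so that the share of members lower was close to that of all genes. Quantile normalization gave 3 higher and 4 lower, against 2.89% and 4.24%. As deposited alone, 10 were higher and 0 lower, against 2.95% and 1.33% of all genes, and rescaled alone 7 were higher and 0 lower, against 3.60% and 4.88%.

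Between PS ventricles, 8 members were lower in the RV and 0 higher, against 1.44% and 0.174% of all genes. At an unadjusted p under 0.05 on both scales (limma), 23 were lower and 0 higher, against 9.07% and 2.57% of all genes. The 8 were Fabp3, Fitm1, Hadha, Acaa2, Decr1, Ech1, Etfb and Ucp3. Fitm1 was lowest relative to the LV, at 96.4, 111, 102 and 63.1 FPKM in RV PS libraries, against 307, 222, 188 and 312 FPKM in LV PS libraries (log2 difference -1.45 ± 0.20, adjusted p = 0.00253). Decr1 had 26.9, 28.7, 45.0 and 33.7 FPKM in RV PS libraries, against 109, 91.3, 70.1 and 67.8 FPKM in LV PS libraries (-1.31 ± 0.26, adjusted p = 0.0128). It was alone among the 8 in giving no call for PS against sham in the RV. The count was 3 or fewer without any 1 of the 8 PS libraries other than LV_PS_9561, and 0 without LV_PS_9552 or LV_PS_9564, while 0.207 to 0.818% of all genes were lower without 1 of those 7. Quantile normalization gave 4, against 0.760% of all genes. TPM scaling called 0 of all 12100 genes, and the libraries that have an Rn45s value, 2 from RV PS and 1 from LV PS, called 4 in all, so neither setting bears on the members. As deposited alone 16 were lower, against 2.89% of all genes, and rescaled alone 8, against 1.51%. In 20 members the RV PS libraries lay below all LV PS libraries and in 0 above them, against 8.16% and 2.43% of all genes.

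Ordered by mean FPKM of each group, RV PS was the lowest of the 4 groups for 30 of 40 members as deposited and 34 rescaled, against 11.9% and 20.3% of all genes. RV sham was the highest for 23 as deposited and 25 rescaled, against 20.9% and 33.5% of all genes. Both LV groups lay between RV PS and RV sham for 19 of 40 members as deposited and 22 rescaled, against 6.21% and 11.7% of all genes. Acadvl was one of these, with group means of 323 ± 49.9 FPKM in RV PS, 622 ± 45.8 FPKM in RV sham, 427 ± 96.2 FPKM in LV PS and 432 ± 41.8 FPKM in LV sham libraries (SD, n = 4 each). As deposited, the 2 LV groups did not differ beyond their spread for Acadvl. Rescaled, it had 448, 284, 300 and 407 FPKM in LV PS libraries, against 497, 505, 482 and 433 FPKM in LV sham libraries. Quantile normalization called Acadvl as lower in LV PS, where 2.2% of all genes were lower.

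Several proteins of the pathway exist as a pair with a muscle or oxidative form and a more general form, and the share of the general form differed between groups. These shares were formed after the values were seen and are a description without a test. Ucp2 made up 82.7 ± 3.36% of Ucp2 and Ucp3 in RV PS and 36.7 ± 6.56% in RV sham libraries, and 74.7 ± 5.17% in LV PS and 42.7 ± 6.85% in LV sham libraries (SD, n = 4 each). No PS library overlapped a sham library in either ventricle. Plin2 made up 47.9 ± 6.05% of Plin2 and Plin5 in RV PS and 22.7 ± 2.48% in RV sham libraries, and 43.3 ± 3.96% in LV PS and 34.0 ± 2.77% in LV sham libraries. Here too the PS libraries lay above the sham libraries in both ventricles.

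Acadl made up 33.7 ± 2.12% of the 4 acyl-CoA dehydrogenases in RV PS and 21.1 ± 2.25% in RV sham libraries, and 33.9 ± 3.27% in LV PS and 25.9 ± 3.29% in LV sham libraries. Fitm1, here the muscle form, made up 79.7 ± 5.68% of Fitm1 and Fitm2 in RV PS and 87.9 ± 2.17% in RV sham libraries, and 84.8 ± 2.70% in LV PS and 79.3 ± 3.06% in LV sham libraries. The share of the general form Fitm2 was therefore larger in PS in the RV, as for Ucp2 and Plin2, and smaller in PS in the LV. Cpt1a stayed a small share of Cpt1a and Cpt1b, at 4.69 ± 0.527% in RV PS, 3.79 ± 0.429% in RV sham, 3.73 ± 0.740% in LV PS and 3.01 ± 0.313% in LV sham libraries. A ratio of genes within a library does not depend on the library's scale, and shows unequal change and not which gene changed.

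**Figure D5:**
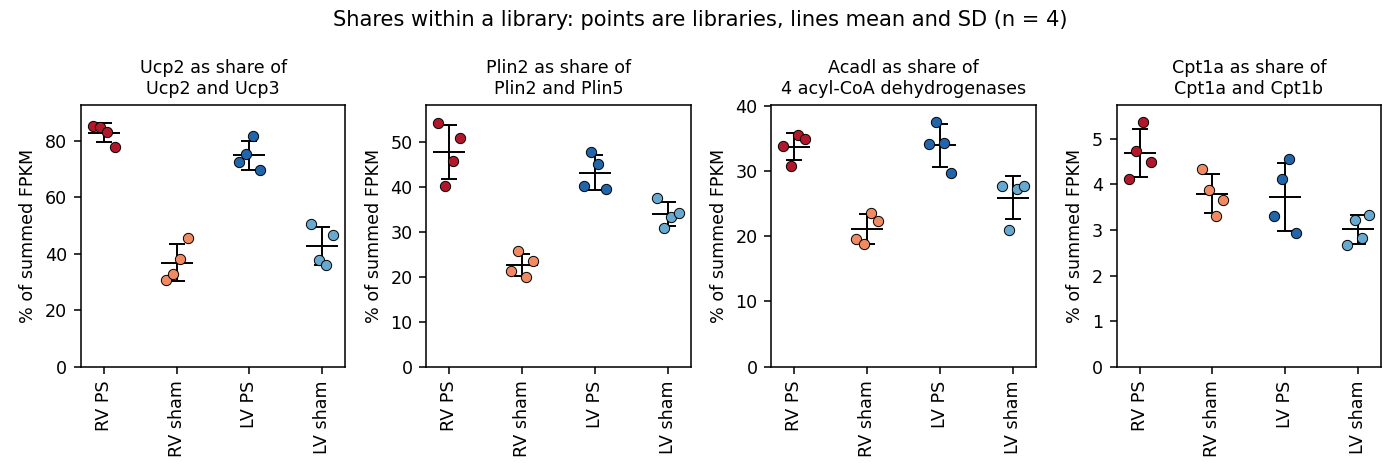
Share of 1 gene in the summed FPKM of its family, in percent, in each of 16 libraries. Points are libraries, long bars are group means and short bars mark 1 SD (n = 4); the Ucp2 share is 77.9 to 85.2% in RV PS and 30.8 to 45.5% in RV sham libraries.

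Related genes outside the 40 were counted in the same way. Of 37 other fatty acid genes 32 were tested, and 6 fell and 0 rose in the RV, with a median log2 difference of 0.15, where 4.93% of all genes fell. Agpat3, an acyltransferase of phospholipid and triglyceride synthesis, fell by 0.89 (limma adjusted p = 0.000661). Acot1, the near-identical copy of Acot2, was listed at 0 in RV_PS_9552 and RV_PS_9564, below 0.2 FPKM in the other RV PS libraries and between 2.48 and 4.65 FPKM in RV sham libraries, and is as uncertain as Acot2. Of 14 peroxisomal genes 2 fell, the thiolase Acaa1a by 0.73 (adjusted p = 0.0146) and the racemase Amacr by 0.56 (adjusted p = 0.0472), with a list median of -0.17.

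Among receptors, coactivators and their targets outside the 40, Esrra and Pdk4 were among those that fell in the RV, and Pdk4 was chosen for naming after its values were seen. Esrra encodes ERR alpha and had 42.1, 59.7, 46.0 and 56.0 FPKM in RV PS libraries, against 106, 83.7, 81.0 and 92.5 FPKM in RV sham libraries (log2 difference -0.83, adjusted p = 0.00230). Pdk4, the kinase that turns off glucose oxidation, fell by 1.65 (adjusted p = 0.00347). The others named here were not called and are given for their known role. Ppara, which encodes PPAR alpha, had a log2 difference of -0.16 (adjusted p = 0.620), and Ppargc1a, the coactivator PGC-1 alpha, 0.36 (adjusted p = 0.402). In the LV, Pdk4 fell by 1.27 (adjusted p = 0.0164) with Gpam, Pex11a and Ppargc1b, while Esrra had a log2 difference of 0.22 (adjusted p = 0.338).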

How the data were processed

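The authors deposited FPKM for each gene and library. Per the submitters' processing notes the tools were FastQC 0.11.5, STAR 2.5.3a, Cufflinks 2.2.1, Cuffdiff and R 3.3.1, with the build mm9. Deposited FPKM were used as they stand, no counts were used, and the authors' 4 columns of group values were not used here. Levels were analysed as log2(FPKM + 1) for genes that reached 1 FPKM in 4 of the 16 libraries or more, with limma 3.58.1 (R 4.3.3, trended prior) in 1 fit of 4 group means. It was run as deposited and after division by a median-ratio factor over 9934 genes above 0 in all libraries. Each of 5 comparisons was adjusted over 12100 genes by the Benjamini-Hochberg method. Members and lists were chosen with earlier results of these data known. Values in every library are given for up to 4 members of each step, by the smallest p in the RV, and for up to 6 called between ventricles or between shams. Of other lists up to 2 called genes per direction are named, and 1 result of these lists is not reported here. Same-numbered RV and LV libraries correlated at -0.0911 to 0.151 in their deviations, with 1 of 8 pairs over 0.1, so numbers served as names only. Fragments were estimated from low FPKM of 6744 genes with an assumed length of 200 nt. The test was checked on simulated data with independent noise and a random library factor unrelated to group. In these data the high scale factors were in PS libraries, a case that the simulation does not cover. Promoter windows were searched with Python 3.11.15, and figures drawn with matplotlib 3.10.9.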

Additional observations from a re-analysis of the deposited data

Results flagged for a closer look

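Among 160 sets of 4 libraries (40 genes in 4 groups), 10 had 1 library set apart from the other 3 by most of the range, where chance gives about 1 in 20. Of these, 4 were high values of LV_PS_9552, with 54.0 FPKM for Plin5 (36.2 to 38.8 in the other LV PS libraries), 109 FPKM for Cpt2 (63.7 to 70.6), 497 FPKM for Hadha (311 to 332) and 447 FPKM for Acaa2 (262 to 273). In the RV PS group, Ech1 was high in RV_PS_9561 at 547 FPKM (393 to 417 in the others) and Ucp2 was low in RV_PS_9552 at 19.6 FPKM (25.4 to 26.0). In RV sham, Acsl1 was high in library 2 at 161 FPKM (128 to 130.3), Etfa in library 3 at 152 FPKM (110.3 to 116) and Acot13 in library 4 at 371 FPKM (300.0 to 311). In LV sham, Etfb was high in library 4 at 459 FPKM (300.4 to 322).

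For 12 genes the effect of PS differed between the ventricles by limma's test of the difference itself (RV effect minus LV effect, log2). The values were -1.09 for Fabp3, -1.22 for Plin5, -2.20 for Fitm1, -1.30 for Dgat2, -1.08 for Cpt2, -0.92 for Acadvl, -1.10 for Hadha, -1.86 for Acaa2, -1.42 for Eci1, -1.71 for Ech1, -1.99 for Etfb and -1.71 for Ucp3.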

How the results depend on the processing

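Counts below are of the 40 members past the threshold, and medians are of their log2 differences. In the RV (21 lower, 0 higher, median -0.62), 1 was higher as deposited alone, under quantile normalization, with a filter of 5 FPKM and with the length and GC correction. TPM scaling gave 11 lower, 4 higher and a median of -0.15, and the median was -0.83 rescaled alone and -0.83 with libraries that have an Rn45s value. In the LV (0 lower, 1 higher, median 0.14), the higher count was 3 as deposited alone, 2 with library weights and 0 with libraries that have an Rn45s value. The lower count was 6 rescaled alone, 13 under quantile normalization, 1 with a filter of 5 FPKM, 1 with libraries of the comparison only, 4 with library weights and 7 with the length and GC correction. The LV median turned to -0.26 rescaled alone, -0.055 under TPM scaling, -0.40 under quantile normalization, -0.052 with libraries that have an Rn45s value and -0.21 with the length and GC correction. Hadh at -0.59 and Eci1 at -0.56 turned sign in the LV under quantile normalization and passed as lower. For the difference of effects (12 lower, median -0.79), the count was 2 under TPM scaling, 6 under quantile normalization and 2 with libraries that have an Rn45s value. Its median was -0.61 rescaled alone, -0.11 under TPM scaling, -0.27 under quantile normalization and -0.50 with the length and GC correction.

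Between shams (6 higher in RV, 0 lower, median 0.32), 10 were higher as deposited alone, 2 with libraries of the comparison only, 1 with library weights and 3 with the length and GC correction. TPM scaling gave 0 higher, 10 lower and a median of -0.25, quantile normalization 3 higher, 4 lower and a median of 0.099, and the length and GC correction a median of 0.14. Between PS ventricles (8 lower in RV, median -0.56), the lower count was 16 as deposited alone, 0 under TPM scaling, 4 under quantile normalization, 5 with no filter, 4 with libraries of the comparison only, 17 with library weights and 0 with libraries that have an Rn45s value; of all 12100 genes, 0 and 3 were lower in the settings that gave 0. The median was -0.42 rescaled alone, -0.15 under quantile normalization and -0.39 with the length and GC correction. The cause of these shifts was not tested.

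Leaving out 1 library at a time gave 18 to 23 lower and 0 to 1 higher in the RV (median -0.78 to -0.57), 0 to 1 lower and 1 to 2 higher in the LV (0.019 to 0.19), 9 to 13 lower for the difference of effects (-0.83 to -0.70), 1 to 6 higher between shams (0.25 to 0.40) and 0 to 8 lower between PS ventricles (-0.64 to -0.44). With the library number as a replicate block (consensus correlation -0.0707 as deposited), counts were 22 lower in the RV, 1 higher in the LV, 12 for the difference, 4 higher between shams (Mlycd and Ucp3 lost) and 8 between PS ventricles, so 1 call was gained and 2 were lost. Pseudocounts of 0.1 and 5 moved no count of members by over 1.5 times. Depth limits genes at low levels in RV sham above all, where Hadhb, Plin2, Ucp2 and Ucp3 rested on 12 to 16.1 estimated fragments in library 2.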
